A study of Mus musculus with 45 samples.

Results

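The transcriptional response of LM1-LM cells to the loss of extracellular cystine was measured by mRNA sequencing. LM1-LM is a line of c-MYC-driven mouse mammary tumour cells that was recovered from the lungs of mice after its parental line, LM1, had been injected into the mammary fat pad. LM1 was itself recovered from lungs after injection of Myc310, a line from an MMTV-cMYC mouse (the mouse mammary tumour virus promoter drives the transgene in mammary epithelium) and the hosts of the injected cells were FVB/NJ mice. The comparison covered all genes in the 6 LM1-LM libraries of the 45 in the series, which were chosen by the labels for line and treatment and not by any measured value. At 24 h after 250000 cells had been seeded per well, the medium of all cultures was replaced for 6 h, by control medium in 3 cultures (Control) and by medium free of cysteine and cystine in 3 (Cys deprived). Both groups carried the same transgene and background. The submitters describe the 3 cultures of a group as technical replicates of 1 line, so that each p-value below measures the spread between such cultures, pooled over the 4 lines in the fit, and says nothing about other tumours.

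Cysteine is the limiting building block of glutathione, the main thiol antioxidant of cells, and tumour cells take most of it up as its oxidised dimer, cystine, through the xCT transporter encoded by Slc7a11. A cell short of an amino acid accumulates uncharged transfer RNAs, which activate the kinase GCN2 (Eif2ak4). The kinase phosphorylates the initiation factor eIF2, most translation slows, and the messenger of the transcription factor ATF4 is translated more. ATF4 then switches on amino acid transporters, biosynthetic enzymes and aminoacyl-tRNA synthetases, together with its own partners and inhibitors, a programme known as the integrated stress response. Genes of oxidant defence respond mainly to a second factor, NRF2.

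The 3 control libraries held 23399483, 24258746 and 21779599 counts and the 3 deprived libraries 28188741, 21433011 and 22908455, and 13400 of 28454 listed genes passed the filter on low counts. Levels are given as CPM, the usual unit of counts relative to library size, with library sizes scaled by the trimmed mean of M values (TMM) over all 45 libraries. Log2 fold changes come from the fit to 24 libraries with its own TMM scaling, and ratios of the printed CPM differ from them by -0.038 log2 units in the median. Correlations of log2 CPM were at least 0.992 within the groups and at most 0.956 between them, and no library stood apart. The share of counts from the mitochondrial genome was 1.54% to 1.99% in control and 1.84% to 1.94% in deprived cultures. Markers of the labelled cell type were present only in part. Krt8 and Krt18, keratins of luminal epithelium, were measured at 833 ± 15.5 and 191 ± 8.5 CPM in control cultures (SD, n = 3), and Vim, an intermediate filament of mesenchymal cells, at 3934 ± 66.4 CPM. Cdh1, Cldn3, Cldn4 and Cldn7, which form epithelial junctions, had 0 counts in all control cultures, and Epcam had 0.0415 ± 0.072 CPM. Of the markers of other cells, Ptprc and Lyz2 (leukocytes), Sftpc and Scgb1a1 (lung epithelium) and Lum, Fap and Dpt (fibroblasts) had 0 counts in all 6 libraries. The summed leukocyte list was 31.9 to 34.1 CPM in control and 64.2 to 68.8 CPM in deprived cultures, nearly all from Cd14 and Cd68, and the summed fibroblast list was 57.6 to 63.6 and 27.2 to 29.2 CPM, mostly from Col3a1. The summed endothelial list was 174.8 to 199.9 and 151.3 to 158 CPM, mostly from Eng, and the alveolar list stayed under 1 CPM. The part of such transcripts in the results was not tested.

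Cystine deprivation changed most of the transcriptome of LM1-LM cells within 6 h. By the quasi-likelihood test of edgeR, adjusted over all genes tested by the method of Benjamini and Hochberg, 9699 genes (72.4%) differed between deprived and control cultures at an adjusted p under 0.05. Of these, 4895 (36.5%) were higher and 4804 (35.9%) were lower after deprivation. The difference exceeded 2-fold for 2690 genes (20.1%), of which 1308 were higher (9.76% of all tested) and 1382 lower (10.3%), and it exceeded 8-fold for 180 higher and 88 lower genes. The other lines in control medium gave 30 libraries, among them those labelled MYAZ12_3i_NDI1, and the 6 h change of medium is recorded only for LM1, Myc310 and MYAZ16.1e, so that line and handling cannot be told apart from deprivation in a comparison with all 30. In 963 of the 1308 genes, the lowest deprived culture was above the highest of the 30 control libraries of the other lines, and in 854 of the 1382 genes the highest deprived culture was below the lowest of them. Over all 13400 genes the deprived cultures lay above those 30 libraries for 2776 genes and below for 2385, whereas the control cultures of LM1-LM did so for 161 and 180. With 3 cultures against 3, an exact two-sided permutation test of a single gene cannot give a p below 0.1, so single genes rest on the model across all genes.

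**Figure D1:**
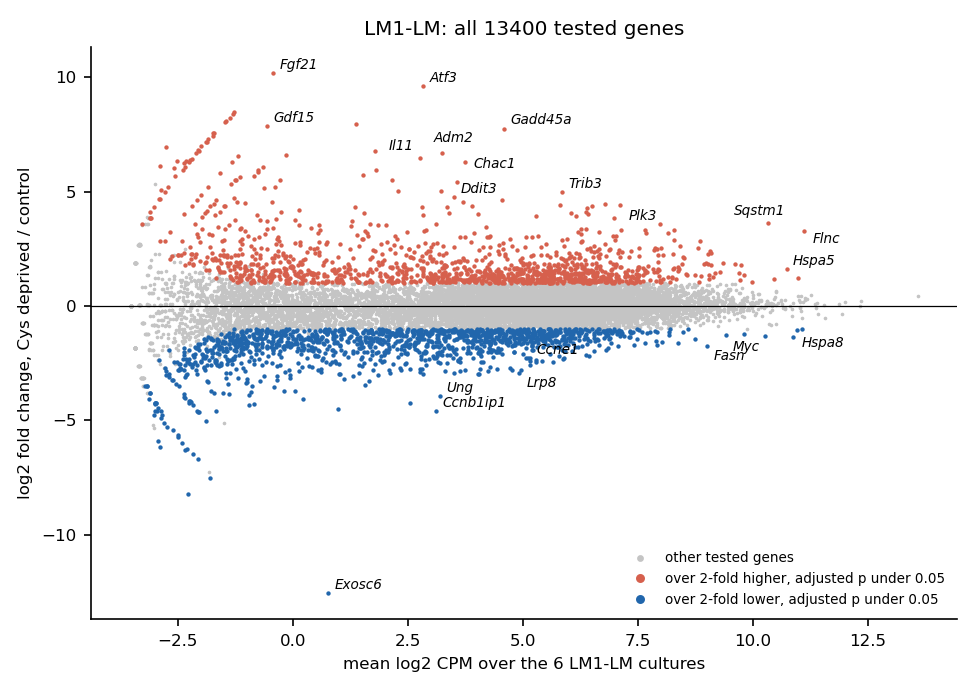
Log2 fold change after 6 h of cystine deprivation (vertical axis) against mean log2 CPM over the 6 LM1-LM cultures (horizontal axis) for the 13400 genes tested, with genes called over 2-fold higher (1308) in red and over 2-fold lower (1382) in blue. The diagonal streaks at the left are genes with hardly any counts in 1 group, and Exosc6, at the bottom, is discussed in the text.

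Several transcription factors of the integrated stress response rose steeply. Of the 20 tested regulators of this response, 15 rose and 5 fell (36.5% and 35.9% of all genes), with a median log2 fold change of 1.64, against 0 for all genes tested. Atf4 measured 138, 141 and 141 CPM in the control cultures and 828, 821 and 839 CPM in the deprived ones (log2 fold change 2.61, SE 0.03, adjusted p = 4.45e-34). All deprived cultures lay far above all controls. Groups without overlap were common, since 9920 of the 13400 genes (74%) had none. Atf3, a stress-induced member of the same family, was close to absent in control medium with 0.301, 0.125 and 0.233 CPM and reached 168, 170 and 176 CPM (log2 fold change 9.62, SE 0.10). Ddit3, which encodes the pro-apoptotic factor CHOP, went from 2.45, 2.04 and 2.01 CPM to 57.3, 56.3 and 57.8 CPM (4.76, SE 0.09). In the annotation Ddit3 (chromosome 10) overlaps a second gene model of the same name and, on the other strand, the synthetase gene Mars1, and the strand setting of the counting is not given in the sources used here.

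Partners and feedback inhibitors of the pathway rose as well. Trib3, a pseudokinase that binds ATF4 and restrains it, measured 12, 9.89 and 9.33 CPM in control and 316, 323 and 325 CPM in deprived cultures (log2 fold change 4.98, SE 0.05). Ppp1r15a, the GADD34 subunit that directs the phosphatase back to eIF2, rose from 19.3, 20.7 and 21 CPM to 383, 410 and 418 CPM (4.35, SE 0.04). For both genes the lowest deprived culture lay more than 10-fold above the highest control. Nupr1, a small chromatin-associated stress protein, rose by 4.09 (SE 0.04), Atf5 by 3.32 and Cebpg, which dimerises with ATF4, by 2.39, all on the log2 scale. The eIF2 kinases moved apart: Eif2ak3, the sensor of the endoplasmic reticulum (ER), rose by 0.61 (SE 0.06), while Eif2ak4 fell from 34.1 ± 1.67 to 17.7 ± 1.64 CPM (log2 fold change -0.92, SE 0.07, adjusted p = 1.8e-13). Eif2ak1 and Eif2ak2 had log2 fold changes of -0.74 and -0.46, and Batf2 had the lowest of the list, -2.09.

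**Figure D2:**
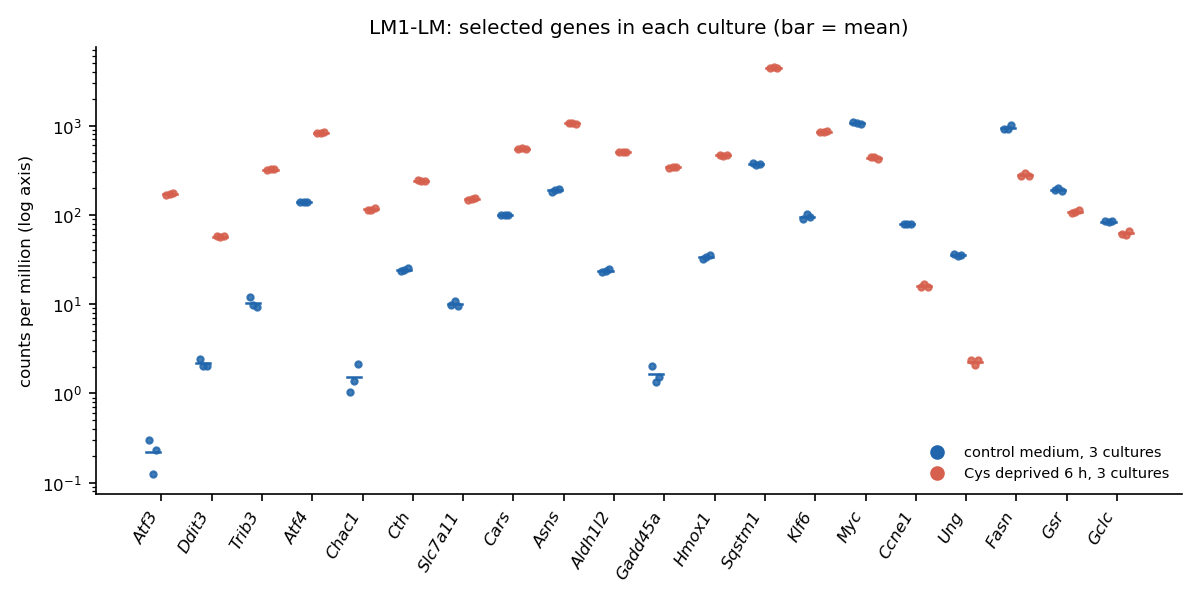
CPM on a log axis for 20 genes in each of the 3 control (blue) and 3 Cys deprived (red) LM1-LM cultures, with the mean as a bar. The groups are separate for each gene shown, with Atf3 rising from 0.22 to 171 CPM on average and Gclc, the smallest change plotted, falling from 84.3 to 62 CPM.

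ATF4 and its C/EBP partners bind a composite element, the amino acid response element, and the letters TGATGNAA, searched on both strands, were looked up in the RefSeq promoters of the assembly GRCm38.p6 (from 250 bases before to 50 bases after each annotated start). At least 1 match was present for 1219 of 27025 genes with a promoter in the table (4.51%). Of the 11817 tested protein-coding genes, 9454 had a promoter (80%), and 251 of those had a match (2.65%). The share was 5.26% (34 of 646) for protein-coding genes called 2-fold to 4-fold higher and 2.17% (165 of 7592) for those that changed by less than 2-fold or were not called. Promoters were found for 73.9% to 79.3% of the genes in the groups over 4-fold higher and over 2-fold lower. This is under the 80% of all tested genes, and no share is compared for these groups. The 250 bases before the start are shown for 6 genes of the results that were picked for having a match there. They run 5′ to 3′ on the strand of the gene, with each match in capitals.
Chac1, chr2:119350992-119351241, plus strand: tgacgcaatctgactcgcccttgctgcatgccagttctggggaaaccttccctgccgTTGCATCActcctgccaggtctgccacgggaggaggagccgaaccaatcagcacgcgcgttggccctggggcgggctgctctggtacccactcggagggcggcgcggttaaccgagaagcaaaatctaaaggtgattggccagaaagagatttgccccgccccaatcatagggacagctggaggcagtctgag
Atf3, chr1:191183334-191183583, minus strand: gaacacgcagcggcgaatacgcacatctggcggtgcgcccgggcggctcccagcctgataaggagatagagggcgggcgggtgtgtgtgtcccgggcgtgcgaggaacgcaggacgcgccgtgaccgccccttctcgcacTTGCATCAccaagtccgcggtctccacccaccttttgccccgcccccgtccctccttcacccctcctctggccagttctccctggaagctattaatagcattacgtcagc
Nupr1, chr7:126625471-126625720, minus strand: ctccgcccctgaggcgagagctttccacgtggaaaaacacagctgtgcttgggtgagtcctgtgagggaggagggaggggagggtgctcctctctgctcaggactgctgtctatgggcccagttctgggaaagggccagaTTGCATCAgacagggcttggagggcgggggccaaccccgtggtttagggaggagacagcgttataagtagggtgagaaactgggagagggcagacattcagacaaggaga
Slc7a11, chr3:50443614-50443863, minus strand: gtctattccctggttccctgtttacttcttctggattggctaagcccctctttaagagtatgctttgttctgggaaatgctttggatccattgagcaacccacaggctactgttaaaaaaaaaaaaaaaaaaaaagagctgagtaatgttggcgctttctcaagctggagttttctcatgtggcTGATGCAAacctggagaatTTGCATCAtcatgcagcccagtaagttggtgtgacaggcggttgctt
Asns, chr6:7693210-7693459, minus strand: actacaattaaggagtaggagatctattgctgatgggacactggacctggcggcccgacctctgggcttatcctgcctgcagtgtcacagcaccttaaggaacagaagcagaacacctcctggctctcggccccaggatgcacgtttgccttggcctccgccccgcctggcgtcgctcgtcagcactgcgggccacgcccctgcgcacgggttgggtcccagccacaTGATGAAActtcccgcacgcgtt
Fgf21, chr7:45615491-45615740, minus strand: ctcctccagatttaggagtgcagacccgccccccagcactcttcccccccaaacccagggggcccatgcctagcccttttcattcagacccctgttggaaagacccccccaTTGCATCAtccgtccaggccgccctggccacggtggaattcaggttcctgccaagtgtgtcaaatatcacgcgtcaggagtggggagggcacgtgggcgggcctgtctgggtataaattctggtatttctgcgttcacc
Slc7a11 held 2 matches, which begin 66 and 47 bases before the start on opposite strands, and the match of Asns begins 23 bases before it. In Trib3 the match TTACATCA lay behind the start. Gadd45a, Ddit3, Adm2 and Slc1a1 had no match to these letters in the window. A match is a run of letters and not evidence of binding.

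The 12 largest increases, where the mean log2 CPM was 3 or more, joined stress effectors with genes of other functions. Gadd45a, which encodes a stress protein that binds PCNA and CDK1, was the largest: it measured 2.02, 1.33 and 1.54 CPM in control and 339, 341 and 347 CPM in deprived cultures (log2 fold change 7.75, SE 0.09, adjusted p = 5.4e-34). This is a 215-fold difference, and the mean of the controls, 1.63 CPM, lay within the range of 1.41 to 9.65 CPM seen in control cultures of the other lines. Adm2, a peptide of the calcitonin family, followed with 0.818, 0.997 and 0.886 against 91.1, 92.2 and 89.9 CPM (6.69, SE 0.11). Acot2, a mitochondrial acyl-CoA thioesterase, rose by 5.41, Cdsn, an adhesion protein of cornified epithelium, by 5.04, Arid5a, which stabilises cytokine messengers, by 4.64 and Otub2, a deubiquitinase, by 4.54. Plk3, a stress-responsive polo-like kinase, rose from 30.5 ± 2.14 to 632 ± 25.4 CPM (log2 fold change 4.41) and Areg, the EGF receptor ligand amphiregulin, from 12.4 ± 0.4 to 254 ± 8.29 CPM (4.39). The list was completed by Trib3, Ddit3, Chac1 and Aldh1l2. The actin cross-linker Flnc, at 638, 702 and 830 CPM in control and 6586, 6846 and 7179 CPM in deprived cultures, rose by 3.29 on the log2 scale (SE 0.06).

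The 12 largest decreases were taken over the same range of expression, a mean log2 CPM of 3 or more in the 6 cultures, and their log2 fold changes ran from -2.78 to -4.61, against 4.39 to 7.75 for the increases. Ccnb1ip1, a ubiquitin ligase of meiotic crossing over, fell from 41.3, 46 and 42 CPM to 2.25, 1.46 and 1.32 CPM (log2 fold change -4.61, SE 0.12), and it overlaps the RNA gene Rpph1 on the same strand. Ung, the uracil-DNA glycosylase of base excision repair, measured 36.8, 34.9 and 35.8 CPM in control and 2.37, 2.07 and 2.35 CPM in deprived cultures (-3.94, SE 0.10). Neither gene overlapped between the groups. Tbc1d4, a Rab GTPase-activating protein that controls glucose transporter traffic, and Tfap4, a Myc-induced transcription factor, had log2 fold changes of -2.97 and -2.96. Lrp8, a lipoprotein receptor that also takes up selenoprotein P, fell from 83.2, 82.8 and 83.6 CPM to 10.2, 11.1 and 10.9 CPM (-2.92, SE 0.05). The others were Camkk1 (-2.94), Pgm2l1 (-2.86), Dixdc1 (-2.85), Slco4a1 (-2.83), the zinc importer Slc39a10 (-2.79), the lysosomal thiol reductase Ifi30 (-2.79) and Pdxk, the kinase that makes pyridoxal phosphate (-2.78).

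Among genes that supply cysteine, the lyase of transsulfuration and the cystine transporter rose, while the first enzyme of transsulfuration was hardly transcribed. Cth, the lyase that releases cysteine from cystathionine, measured 23.3, 24.3 and 25.6 CPM in control and 244, 243 and 237 CPM in deprived cultures (log2 fold change 3.34, SE 0.05). Cbs, which makes cystathionine from homocysteine and serine, stayed at the limit of counting with 0.0586 ± 0.0654 and 0.106 ± 0.142 CPM (adjusted p = 0.429), so that a change was not detectable at this depth. Of the 12 tested genes of transsulfuration and cysteine breakdown, 3 rose (Cth, the aminotransferase Got1 and Csad), 4 fell and 5 were not called. The shares were no higher than over all genes (36.5% and 35.9%). The call of Csad was lost without control culture 2 or deprived culture 1 or 3. It was also lost with upper-quartile or total-count scaling and with the 6 LM1-LM libraries alone. The 4 genes that fell act on cysteine or its sulfur: Ado, a thiol dioxygenase (-0.79), the sulfurtransferases Tst (-1.10) and Mpst (-0.38), and Ethe1 (-0.37).

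Among 22 tested amino acid transporters, 12 rose (36.5% of all genes) and 8 fell, with a median log2 fold change of 1.03. The share that fell was close to that over all genes (35.9%), and 11 of the 22 were over 2-fold higher (9.76% of all genes). The cystine transporter gene Slc7a11 rose from 9.77, 10.8 and 9.61 CPM to 145, 151 and 154 CPM (3.93, SE 0.05), which is 15.3-fold. Its partner chain Slc3a2 went from 194 ± 3.42 to 582 ± 3.33 CPM (1.62), the large neutral transporter Slc7a5 from 469 ± 15.5 to 1570 ± 10.3 CPM (1.78) and the glycine transporter Slc6a9 from 33.4 ± 0.715 to 303 ± 2.52 CPM (3.22). All of these had separate groups. Slc1a1, the EAAT3 carrier that can import cysteine itself, had 0 counts in every control culture and only 0.382, 0.403 and 0.47 CPM after deprivation, so no fold is given. On the other side stood Slc43a2, a facilitative carrier of branched-chain amino acids, at 24.4 ± 0.831 and 6.82 ± 0.911 CPM (-1.81), and the taurine carrier Slc6a6 (-1.02).

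Chac1 rose steeply, while the genes of glutathione synthesis changed little or fell. Chac1, which cleaves glutathione in the cytosol, rose from 1.03, 1.37 and 2.15 CPM to 114, 114 and 121 CPM (log2 fold change 6.31, SE 0.08, adjusted p = 3.61e-32). Other genes of breakdown went both ways, with Chac2 at 0.77 and the aminopeptidase Anpep at -1.50. Gclc, the catalytic subunit of the rate-limiting ligase, measured 85.8, 82.7 and 84.5 CPM in control and 61.6, 59.2 and 65.3 CPM in deprived cultures (-0.41, SE 0.04). Gclm, its modifier subunit, changed by -0.18 (SE 0.04), and Gss, the synthetase, had 36.3 ± 0.932 and 36.2 ± 1.29 CPM (log2 fold change from the fit 0.03, SE 0.05, adjusted p = 0.544, so that no change was called). Gsr, the reductase that regenerates glutathione with NADPH, fell from 190, 199 and 187 CPM to 105, 109 and 114 CPM (-0.78, SE 0.04). Over the 16 tested genes of this group, 6 rose, 7 fell and 3 were not called, with a median of -0.01, which is near the shares over all genes (36.5% higher and 35.9% lower).

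Most enzymes that charge cytosolic transfer RNAs rose. Of 23 tested cytosolic aminoacyl-tRNA synthetases and their scaffold proteins, 16 rose and 4 fell (36.5% and 35.9% of all genes), with a median log2 fold change of 1.36. Cars, which charges the cysteine tRNA, had the highest value of the list: 98.7, 98.8 and 100 CPM became 545, 561 and 550 CPM (2.52, SE 0.03). Aars (2.41), Tars (2.25) and Sars (2.09) followed. Qars, for glutamine, fell from 164 ± 3.26 to 71.8 ± 0.471 CPM (-1.16, SE 0.03), and Kars, for lysine, had -0.30. The synthetases of mitochondria did not share this pattern: 4 of 17 rose and 8 fell, beside the same shares over all genes, with a median of -0.22, and Cars2, the mitochondrial counterpart of Cars, fell from 25.3 ± 1.35 to 12.7 ± 0.456 CPM (-0.96, SE 0.07).

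In serine and folate metabolism 9 of 19 tested genes rose and 6 fell, not far from the shares over all genes (36.5% and 35.9%), and 6 of the 19 were over 2-fold higher (9.76% of all genes). Aldh1l2, the mitochondrial 10-formyltetrahydrofolate dehydrogenase, rose from 22.6, 23.5 and 24.6 CPM to 511, 509 and 512 CPM (log2 fold change 4.48, SE 0.04). Psph, which completes serine synthesis, rose by 3.16 and the mitochondrial enzymes Mthfd2 and Shmt2 by 2.47 and 1.49, while the earlier serine enzymes Phgdh and Psat1 rose by 0.57 and 0.69. The cytosolic isoform Shmt1 fell (-1.30). Asns, which makes asparagine, rose from 189 ± 7.21 to 1063 ± 24.8 CPM (2.53), the proline enzymes Pycr1 and Aldh18a1 by 2.61 and 2.55, and Gpt2, a mitochondrial alanine aminotransferase, from 21.5 ± 1.1 to 342 ± 3.73 CPM (4.03). The list of asparagine, glutamine, proline and branched-chain enzymes as a whole did not move with them, since 13 of its 19 tested members fell, among them Gls2 (-1.42) and Prodh (-1.14).

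**Figure D3:**
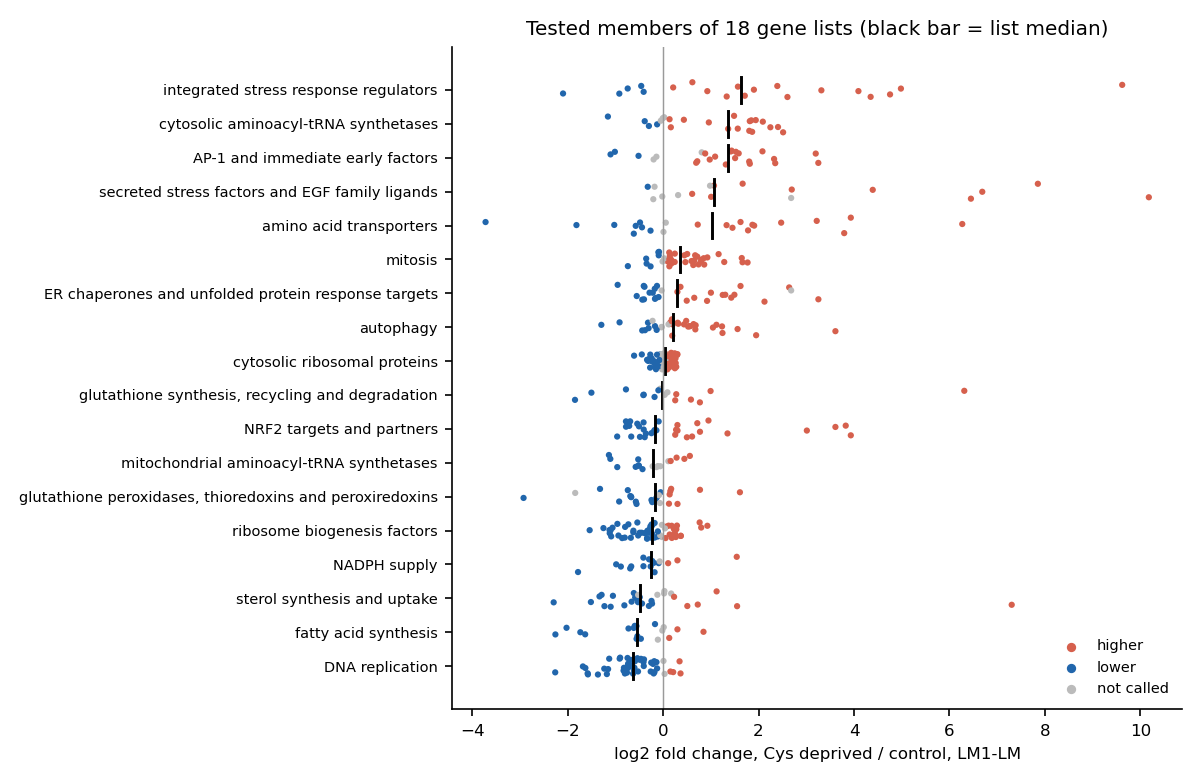
Log2 fold change after deprivation in LM1-LM of each tested member of 18 gene lists, coloured by whether it was called higher (red), lower (blue) or not called (grey), with the list median as a black bar. Medians run from 1.64 for regulators of the integrated stress response to -0.63 for DNA replication, and most lists hold genes of both directions.

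The targets of NRF2 moved in both directions, as the tested genes as a whole did. Of 32 tested genes, 14 rose and 18 fell, against 36.5% and 35.9% of all genes, with a median of -0.16. Hmox1, which breaks down haem, rose from 32, 33.8 and 35.4 CPM to 468, 459 and 470 CPM (log2 fold change 3.83, SE 0.04), and Sqstm1, the autophagy receptor p62 that also binds the NRF2 repressor KEAP1, from 382, 363 and 369 CPM to 4383, 4499 and 4388 CPM (3.61, SE 0.03). Osgin1 rose by 3.01 and Nfe2l2, the gene of NRF2, by 0.95. Among those that fell were the following: Nqo1, the quinone reductase often used as a reporter of NRF2, measured 6.26 ± 0.262 and 4.69 ± 0.35 CPM (-0.38, adjusted p = 0.00565), and the glutathione transferase Gstm1 (-0.78) and the carbonyl reductase Cbr1 (-0.96) fell as well. Of 17 tested glutathione S-transferases 2 rose, 6 fell and 9 were not called. Among 17 genes of NADPH supply 3 rose and 13 fell, beside the same shares over all genes, including G6pdx (-0.69), the first enzyme of the pentose phosphate pathway, and Idh1, from 95.7 ± 11.5 to 27.1 ± 0.547 CPM (-1.78).

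Of 25 tested glutathione peroxidases, thioredoxins, peroxiredoxins and related enzymes, 7 rose and 15 fell (36.5% and 35.9% of all genes). Txnip, the thioredoxin inhibitor, rose from 106 ± 6.72 to 314 ± 10.1 CPM (log2 fold change 1.61, SE 0.04), Srxn1 by 0.77 and Txnrd1 by 0.30. Gpx4, the selenoenzyme that repairs lipid peroxides, measured 236, 230 and 223 CPM in control and 245, 234 and 252 CPM in deprived cultures (0.12, SE 0.03). Those values overlapped, and the sign turned with scaling to total counts (log2 fold change -0.01). Peroxiredoxins Prdx2, Prdx5 and Prdx6 had -0.67, -0.57 and -0.69 and Sod2 had -0.92. In the list of iron handling and ferroptosis genes 16 of 29 rose (36.5% of all genes), with Ptgs2, the inducible cyclooxygenase, at 19.3 ± 1.88 and 365 ± 1.93 CPM (4.28) and Sat1, a polyamine acetyltransferase, at 2.23, while Tfrc changed by -0.10 and Steap3, an endosomal ferrireductase, by -1.77. The metallothioneins Mt1 and Mt2, cysteine-rich metal-binding proteins, rose by 1.71 (SE 0.03) and 1.45 (SE 0.03).

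Most genes of lipid synthesis fell. Of 18 tested genes of fatty acid synthesis 12 fell and 3 rose (median log2 fold change -0.55), and of 29 genes of sterol synthesis and uptake 18 fell and 6 rose (median -0.49), where 35.9% of all genes fell and 36.5% rose. Fasn, the fatty acid synthase, measured 913, 926 and 1012 CPM in control and 270, 291 and 275 CPM in deprived cultures (-1.73, SE 0.04). Elovl6, an elongase, fell from 131 ± 7.27 to 26.7 ± 2.2 CPM (-2.25). The SREBP targets Hmgcs1 (-0.81) and Insig1 (-1.33) fell too, whereas the methylsterol oxidase Msmo1 rose from 28.1 ± 5.2 to 80.4 ± 0.356 CPM (1.55, SE 0.07).

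Of 28 tested glycolysis genes 18 fell and 7 rose (median log2 fold change -0.25), where 35.9% of all genes fell and 36.5% rose. The lactate exporter Slc16a3 measured 229, 213 and 213 CPM in control and 51.7, 62 and 57.9 CPM in deprived cultures (-1.90, SE 0.04), and the glucose transporter Slc2a3 fell from 27.7 ± 1.02 to 7.11 ± 1.32 CPM (-1.91). The ubiquitous transporter Slc2a1 rose by 0.48 and Pfkfb4, a kinase that sets the level of the activator of glycolysis, by 1.60. In the methionine and polyamine list 17 of 29 genes fell and 10 rose, the latter near the share over all genes. Mat2a, which makes S-adenosylmethionine, fell from 423 ± 21.6 to 202 ± 5.43 CPM (-1.02), and Mtap, which salvages methionine, from 437 ± 2.41 to 133 ± 1.96 CPM (-1.68). Of the respiratory chain genes 27 of 65 nuclear ones fell, a share near the 35.9% of all genes, and 16 rose (median -0.05), with values from -1.08 (Sdhd) to 0.48 (Uqcrq), and 10 of 13 of the mitochondrial genome were not called.

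In the list of ER chaperones and unfolded protein response targets 14 of 29 tested genes rose and 13 fell, not far from the shares over all genes (36.5% and 35.9%). Hspa5, the chaperone BiP, rose from 979, 977 and 978 CPM to 2958, 2945 and 2902 CPM (log2 fold change 1.62, SE 0.02), Herpud1 of ER-associated degradation from 24.1 ± 1.13 to 224 ± 5.15 CPM (3.25), and the sensor gene Ern1 by 2.64. The luminal folding enzymes Pdia4, Pdia6, Calr and Sdf2l1 had -0.40, -0.43, -0.55 and -0.95. Among heat shock proteins, Hspa8, the constitutive cytosolic HSC70, fell from 2915, 3081 and 3066 CPM to 1176, 1164 and 1157 CPM (-1.34, SE 0.03), the inducible Hspa1a from 18.1 ± 2.77 to 7.9 ± 0.191 CPM (-1.16), and 13 of 23 tested members fell in all (35.9% of all genes). The mitochondrial Hspa9 (1.22) and the small heat shock gene Hspb1 (1.04) rose. Hspa1a and Hspa1b are near-identical copies, and the assignment of reads between them is uncertain. Autophagy genes rose in 23 of 35 cases (36.5% of all genes), mostly by little (median 0.20), with Sqstm1 and Optn (1.95) highest and Tfeb lowest (-1.29).

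Genes of DNA replication and of mitosis moved in opposite directions. Of 49 tested replication genes 43 fell and 4 rose (median log2 fold change -0.63), while of 38 mitotic genes 29 rose and 7 fell (median 0.35). Over all genes 36.5% rose and 35.9% fell. Ccne1, the cyclin that starts S phase with CDK2, measured 79, 78.6 and 78.6 CPM in control and 15.7, 16.8 and 15.6 CPM in deprived cultures (-2.26, SE 0.05). Cdc6, a licensing factor, fell from 70.8 ± 1.42 to 22.4 ± 1.12 CPM (-1.63), the helicase subunit Mcm2 from 257 ± 4.97 to 134 ± 3.22 CPM (-0.91) and the clamp Pcna from 357 ± 9.6 to 209 ± 1.35 CPM (-0.74). In the mitotic list, the spindle protein Nusap1 rose from 40.2, 42.9 and 36 CPM to 135, 132 and 129 CPM (1.77, SE 0.04), the kinetochore gene Ndc80 from 44.3 ± 3.27 to 137 ± 5.01 CPM (1.66), Prc1 by 1.65, Aurka by 1.28 and Ccnb1 from 281 ± 3.32 to 457 ± 4.92 CPM (0.74). Mki67, at 643 ± 55.2 and 669 ± 12.7 CPM, and Plk1, at 187 ± 5.08 and 171 ± 3.1 CPM, differed little (0.10 and -0.09). The call of Mki67 was lost without control culture 1 or 2 or deprived culture 2. It was also lost with the other normalizations, with DESeq2 and with the 6 LM1-LM libraries alone. The sign of Mki67 turned with scaling to total counts (-0.04). In bulk RNA, a change in the share of cells in a phase and a change of messenger per cell cannot be told apart.

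The Myc gene was lower. It measured 1102, 1078 and 1042 CPM in control and 446, 447 and 420 CPM in deprived cultures (log2 fold change -1.26, SE 0.03, adjusted p = 5.79e-24). The groups were separate by more than 2-fold. The tumour line carries a c-MYC transgene, and whether its reads enter this row was not tested. Its antagonist Mxd1 rose from 2.45 ± 0.147 to 8.85 ± 0.433 CPM (1.89), and Mxd3 fell (-2.37). Of 59 ribosome biogenesis factors 37 fell and 18 rose (median -0.24), against 35.9% and 36.5% of all genes, with Rrp1b (-1.54), Nolc1 (-1.25) and the polymerase I subunit Polr1b (-1.12) low and Nop14 (0.93) high. Ribosomal protein genes stayed within -0.61 (Rps15) and 0.30 (Rps20), 34 of 79 called higher and 24 lower with a median of 0.05, and no direction can be given for them as a group, since scaling to total counts moved the median of all genes by -0.13.

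Targets of p53 and genes of cell death showed no common direction. Of 29 tested p53 genes 16 rose and 13 fell, where 36.5% and 35.9% of all genes did. Cdkn1a, the CDK inhibitor p21, rose from 111 ± 2.31 to 339 ± 2.82 CPM (log2 fold change 1.64) and Sesn2 from 47.3 ± 2.29 to 220 ± 5.26 CPM (2.26), both of which ATF4 can also induce, whereas Mdm2 rose by 0.58 and Ccng1, Zmat3 and Bax had -0.63, -0.21 and -0.30. In the BCL2 and death receptor list 9 genes rose and 15 fell, beside the same shares over all genes. Bbc3, the BH3-only protein PUMA, rose from 8.47 ± 0.87 to 27.5 ± 1.42 CPM (1.74), the caspase-8 inhibitor Cflar by 1.14 and Mcl1 by 0.61, and Bok fell from 92.7 ± 4.6 to 16.6 ± 1.34 CPM (-2.44). Tnfrsf10b, the death receptor DR5 that CHOP induces in other settings, had -0.30.

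Immediate early transcription factors rose in 18 of 24 cases (median log2 fold change 1.37), where 36.5% of all genes rose. Klf6 went from 90.8, 102 and 94.2 CPM to 843, 850 and 874 CPM (3.20, SE 0.03), Jun from 60.3 ± 3.08 to 295 ± 10.9 CPM (2.33) and Fosl1 from 101 ± 3.69 to 244 ± 12.2 CPM (1.31). Fos, at 0.349 ± 0.0336 and 0.608 ± 0.216 CPM, was not called (adjusted p = 0.0879). The phosphatases that switch MAP kinases off included Dusp8 (4.06 ± 0.102 to 63.4 ± 1.77 CPM), Dusp10 (2.63) and Dusp1 (2.30) on the rising side and Dusp9 (-1.31) on the other. Secreted factors rose in 10 of 17 cases, beside the same 36.5%, and 1, Tgfa, fell (-0.32). Il11, an interleukin of the IL-6 family, rose from 0.517, 0.54 and 1.07 CPM to 60.3, 56.3 and 63.2 CPM (6.45, SE 0.16), Vegfa from 18.1 ± 0.783 to 115 ± 7.58 CPM (2.70), and Hbegf by 1.67. Gdf15, a circulating stress hormone, had 0, 0 and 1 counts in the control libraries and 123, 87 and 96 in the deprived ones.

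Some messengers were at or near the limit of counting in 1 of the groups. Among tested genes, 27 had no more than 3 counts in any control culture and a mean of at least 20 counts after deprivation, 9 of them with 0 counts in all controls. The reverse held for 11, among which Rpl27-ps3 (690, 0 and 0 counts in control cultures) owed its mean to 1 library and was not called (adjusted p = 0.0845), and Gm2274 (0, 113 and 4) rested on 1 library as well. Fgf21, a hormone of amino acid and energy stress, had 0 counts in each control culture and 158, 115 and 153 counts after deprivation, which is at least 48.3-fold higher against a floor of 3 counts per library. By the same floor Mamdc2 (56, 29 and 46 counts), Sh2d6 (39, 34 and 37) and Gbx1 (40, 24 and 35) were at least 14.6-fold, 12.6-fold and 11.1-fold higher. Floors and bounds cover counting error only. In the other direction Exosc6, a subunit of the RNA exosome, had 870, 787 and 647 counts in control cultures and 0 in each deprived one, at least 246-fold lower. It also had 0 counts in all 12 deprived libraries of the series and 361 to 1027 in the 33 control libraries. The annotated Exosc6 gene (chr8:111056339-111057664, plus strand) lies wholly inside the end of Aars (chr8:111033144-111057664, plus strand), a gene that rose from 234 ± 6.48 to 1212 ± 8.49 CPM, so that the assignment of reads between both genes is uncertain. Whether control and deprived libraries were counted with the same settings was not tested.

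The response of LM1-LM was then set against that of the 3 other deprived lines, which addresses whether lines of different metastatic history answer the same shortage alike. The comparison tested, gene by gene, whether the log2 fold change in LM1-LM differed from that in LM1, its parent, Myc310, the line before that, and MYAZ16.1e, a line from another MMTV-cMYC tumour, each with 3 control and 3 deprived cultures. All contrasts share the LM1-LM libraries, so that they are not independent of each other. Against LM1, 103 genes differed (0.769% of those tested), with the LM1-LM change above that of LM1 for 44 (0.328%) and below for 59 (0.44%). Without deprived culture 1 or 3 of LM1-LM that count was 54 or 64 instead of 103. Against Myc310 it was 4455 genes (33.2%), 2553 above (19.1%) and 1902 below (14.2%), and against MYAZ16.1e 7345 genes (54.8%), 3801 above (28.4%) and 3544 below (26.4%). A difference of more than 1 log2 unit was called for 4, 289 and 1359 genes. Each contrast has a line and its culture history behind it, and these cannot be told apart with 1 line of each kind.

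Mitotic genes differed from Myc310 and MYAZ16.1e in 1 direction. The LM1-LM change was above that of MYAZ16.1e for 36 of 38 genes and above that of Myc310 for 34, with none below in either contrast, whereas 3 were above and none below against LM1. Over all genes 28.4%, 19.1% and 0.328% were above in these contrasts. The 3 became 1 without control culture 1 or 2 or deprived culture 1 or 3. The list median was 0.35 in LM1-LM, 0.24 in LM1, 0.09 in Myc310 and -0.30 in MYAZ16.1e. Ccnb1 had log2 fold changes of 0.74, 0.57, 0.19 and -0.39 in that order, and Nusap1 1.77, 1.60, 1.12 and 0.07. The median of the replication list, by contrast, was -0.63, -0.65, -0.57 and -0.53. Against MYAZ16.1e 22 of its 49 genes were below and 12 above (26.4% and 28.4% of all genes). Against Myc310 16 were below and 5 above (14.2% and 19.1% of all genes).

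**Figure D4:**
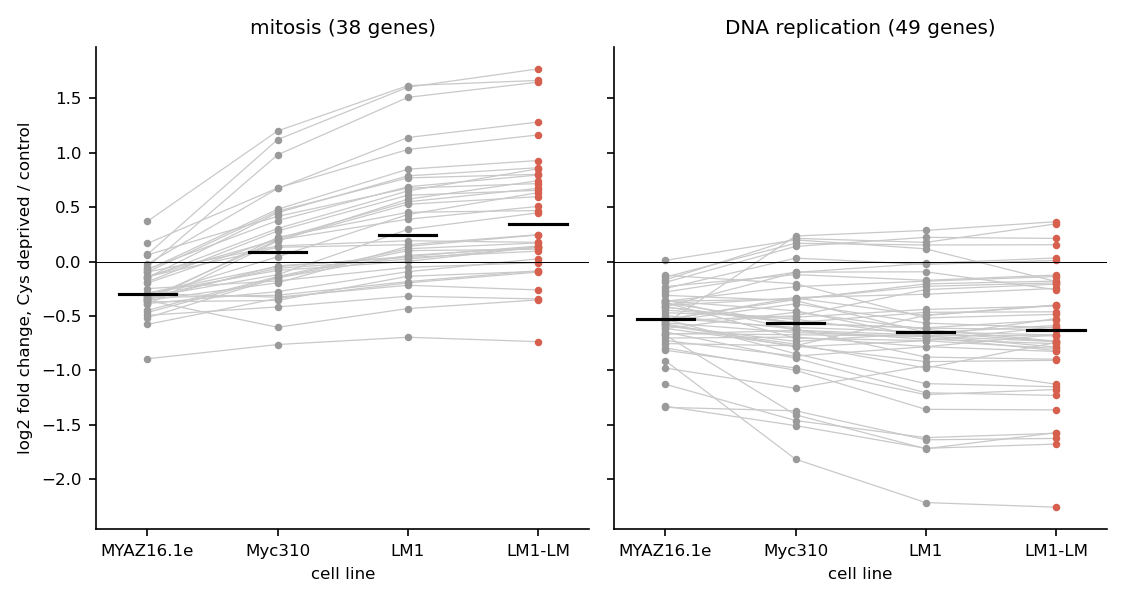
Log2 fold change after 6 h of deprivation for each tested gene of mitosis (38, left) and DNA replication (49, right) in the 4 deprived lines, joined by a grey line per gene, with LM1-LM in red and the list median as a black bar. The mitotic median goes from -0.30 in MYAZ16.1e to 0.35 in LM1-LM and the replication median stays between -0.65 and -0.53.

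Regulators of the integrated stress response differed from MYAZ16.1e in 17 of 20 cases, 13 above and 4 below (54.8% of all genes differed), with a median difference of 0.55. Against Myc310, 10 were above and 2 below (19.1% and 14.2% of all genes), with a median difference of 0.27. None differed from LM1 (median difference 0.03), where 0.769% of all genes did. Atf4 itself changed by 2.61 in LM1-LM, 2.52 in LM1, 2.16 in Myc310 and 1.65 in MYAZ16.1e, and the difference from MYAZ16.1e was called (adjusted p = 9.34e-19) while that from LM1 was not (adjusted p = 0.383). Chac1 changed by 6.31, 6.41, 5.81 and 5.94 in the same order, and the adjusted p of the difference was 0.921 for LM1, 0.0435 for Myc310 and 0.0645 for MYAZ16.1e. The call against Myc310 was lost under 6 other settings of normalization, filter, block or tool (0.0554 to 0.107) and without control culture 1 or 2 or deprived culture 3 (0.0614 to 0.316), and that against MYAZ16.1e was gained without control culture 3 (difference 0.69, adjusted p = 0.00231). Cth changed by 3.34, 3.32, 3.01 and 3.10, and it differed from Myc310 and MYAZ16.1e (adjusted p = 0.000299 and 0.0116) but was not called against LM1 (0.964). The call of Cth against MYAZ16.1e was lost with scaling to total counts (0.371) and with upper-quartile scaling (0.101). Glutathione genes differed in 5 of 16 cases against MYAZ16.1e, 3 above and 2 below (54.8% of all genes differed), and in none against LM1 (0.769% of all genes). Immediate early factors stood above MYAZ16.1e in 15 of 24 cases and below in 3 (28.4% and 26.4% of all genes), among the former Klf6 (3.20 against 0.85, adjusted p = 1.03e-25).

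**Figure D5:**
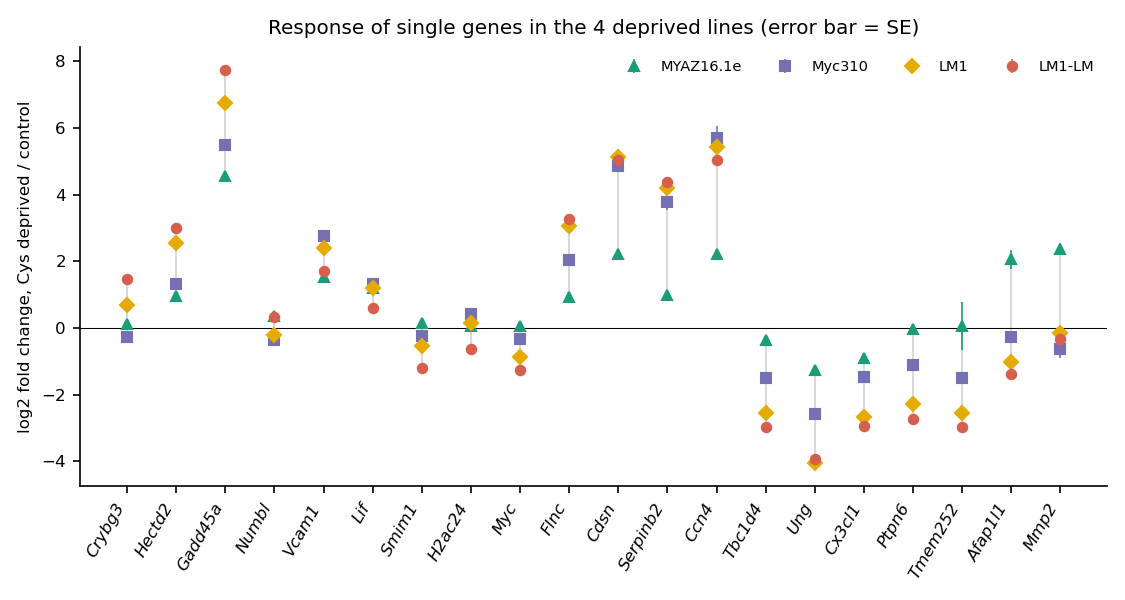
Log2 fold change after deprivation, with its SE as an error bar, of 20 genes in MYAZ16.1e (triangles), Myc310 (squares), LM1 (diamonds) and LM1-LM (circles). Gadd45a rises in all 4 lines and most in LM1-LM (7.75), and Myc falls in 3 of them, by 1.26 on the log2 scale in LM1-LM.

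Myc was among the few genes whose response differed from that of LM1. It changed by -1.26 in LM1-LM, -0.88 in LM1, -0.32 in Myc310 and 0.06 in MYAZ16.1e, and the adjusted p of the difference was 8.36e-05 against LM1, 5.88e-15 against Myc310 and 1.42e-19 against MYAZ16.1e. Gadd45a, the first of the 12 largest increases named above, changed by 7.75, 6.74, 5.48 and 4.55 in the same order, and all 3 differences were called (adjusted p = 0.0164, 3.85e-11 and 9.47e-16), the one from LM1 no longer without control culture 2 (difference 0.87, adjusted p = 0.0885).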

How the data were processed

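Messenger RNA of 45 cultures of mouse tumour cell lines was enriched by poly(A) selection, made into strand-marking libraries and sequenced in pairs. The authors aligned the reads with STAR to GRCm38 and estimated gene abundance with RSEM, and the deposited values are raw counts per gene, rounded to whole numbers. Their notes name R 4.2.2 and DESeq2 1.38.3. The gene annotation and strand setting are not given in the sources used here. Gene positions and overlaps were read from GENCODE M21 (GRCm38), which holds 28407 of the 28454 listed genes. Totals were 21433011 to 28188741 counts in the 6 LM1-LM libraries.

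Counts of 24 libraries (LM1-LM, LM1, Myc310 and MYAZ16.1e, control and Cys deprived, 3 each) were fitted in edgeR 4.0.16 (R 4.3.3, limma 3.58.1) with a mean for each of 8 groups, genes filtered by filterByExpr, TMM scaling and the quasi-likelihood test. Adjusted p-values follow Benjamini and Hochberg over 13400 genes, with a threshold of 0.05. Contrasts were deprived minus control in LM1-LM, and the difference of this response from that of each other line. Fold changes use the default prior count of the fit, and log2 CPM uses a prior count of 2. Means carry the SD of 3 cultures. The SE of a log2 fold change was worked back from the test. It is the absolute log2 fold change divided by the square root of the quasi-likelihood F statistic. The scripts were tested on simulated data. The genes named include the 12 largest changes in each direction at a mean log2 CPM of at least 3. They also include the 4 largest called differences in each direction from each line (mean over the 12 libraries of both lines). Core members of the lists and some, not all, of the list extremes are named as well. Some others, such as Myc against the other lines, Exosc6 and the genes under other observations, were chosen after their values were seen. The lists and comparisons were chosen with earlier results of these data known. Alternatives were other normalizations, filters, DESeq2 1.42.0, a replicate block, the 6 LM1-LM libraries alone, and leaving out each of them. Same-numbered control and deprived cultures did not deviate together (correlations of -0.0566 to 0.0522 over the 4 lines), so that the numbers were not used to pair them. Motif letters were searched in RefSeq promoters of GRCm38.p6. Count intervals and floors cover counting error only. A few genes are not reported here.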

Additional observations from a re-analysis of the deposited data

Results flagged for a closer look

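The differences between lines listed here were found by a test of the difference between responses, and all compare log2 fold changes after deprivation in LM1-LM with those of another line. Against LM1, 103 genes differed. The LM1-LM response was higher for Gadd45a (by 1.01 log2 units, from 7.75 and 6.74), for Crybg3 (0.76, from 1.46 and 0.70), for Numbl (0.53, from 0.33 and -0.20) and for Hectd2 (0.48, from 3.01 and 2.54). Calls for Gadd45a, Hectd2, Numbl, H2ac24, Lif and Vcam1 against LM1 were each lost on leaving out at least 1 LM1-LM library, and those for Crybg3 and Smim1 were not. The response was lower for H2ac24 (difference -0.78, from -0.62 and 0.16), Smim1 (-0.67, from -1.21 and -0.54), the adhesion molecule Vcam1 (-0.67, from 1.73 and 2.40) and the cytokine Lif (-0.58, from 0.61 and 1.19).

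Against Myc310, 4455 genes differed. The largest differences above it were those of Gadd45a (2.27), Crybg3 (1.74), Hectd2 (1.70) and Flnc (1.23), taken over genes whose mean log2 CPM reached 3 in the 12 libraries of both lines. Those below it were Ptpn6, a tyrosine phosphatase (-1.60, from -2.72 and -1.12), Tmem252 (-1.475, from -2.97 and -1.49), Tbc1d4 (-1.47, from -2.97 and -1.50) and the chemokine Cx3cl1 (-1.46, from -2.94 and -1.47).

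Against MYAZ16.1e, 7345 genes differed. By the same rule the largest above it were Serpinb2, a plasminogen activator inhibitor (3.40, from 4.39 and 0.99), Gadd45a (3.20, from 7.75 and 4.55), the matricellular gene Ccn4 (2.83, from 5.03 and 2.21) and Cdsn (2.80, from 5.04 and 2.23). Below it were Afap1l1 (-3.45, from -1.39 and 2.06), the matrix metalloproteinase Mmp2 (-2.71, from -0.33 and 2.38), Ung (-2.68, from -3.94 and -1.26) and Tbc1d4 (-2.60, from -2.97 and -0.37).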

How the results depend on the processing

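Counts of genes higher or lower kept within 1.5 times of the reported ones under every alternative run. Upper-quartile scaling gave 4287 higher and 5396 lower genes. Counts and medians of the gene lists were less stable. Of 94 list counts, 12 went outside 1.5 times with scaling to total counts and 7 with upper-quartile scaling. Of 47 list medians, 40 and 37 moved by more than the median SE of their list in these settings. Small list medians therefore depend on the scaling. With at least 10 counts required in every library, 896 genes were over 2-fold lower instead of 1382. The count of genes whose response differed from LM1, 103, was 218 when all genes with a single count were kept and 67 with the replicate block. It ranged from 54 to 105 when 1 LM1-LM library was left out, with 54 without deprived replicate 1 and 64 without deprived replicate 3. The cause was not tested. The cultures share only a number, and the block was run for comparison. The replicate block gave 4855 higher and 4724 lower genes, it moved none of the other counts of genes by over 1.5 times, and among the named genes it ended the calls of Numbl against LM1 and of Chac1 against Myc310. Scaling to total counts gave 3962 higher and 5756 lower genes (40.8% of calls higher, against 50.5%) and moved the median of all genes by -0.13, and it turned the sign for Gpx4 (-0.00801) and Mki67 (-0.0363). With that scaling 28 of the 38 mitotic genes were called above Myc310 and 32 above MYAZ16.1e, with 1 called below it. The call of Vim was lost with it, and that of Cd68 with several alternatives. DESeq2 gave 4635 higher and 4848 lower genes. Depths of 21433011 to 28188741 counts leave genes such as Cbs and Slc1a1, with a few counts per library, without a usable fold change.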

Other observations

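Genes of adhesion and matrix mostly rose in deprived LM1-LM cultures: of 27 tested collagens, laminins and integrins 17 rose and 5 fell (median log2 fold change 0.33; 36.5% and 35.9% of all genes). Fn1, which encodes fibronectin, measured 10.9, 11.6 and 13.4 CPM in control and 93.1, 92.4 and 92.8 CPM in deprived cultures (2.99, SE 0.06), and Itga2, a collagen receptor subunit, went from 1.55 ± 0.132 to 10.4 ± 1.29 CPM (2.78). The transcription factor Zeb2 rose from 53.2 ± 2.26 to 126 ± 1.12 CPM (1.29). Of 26 interferon-stimulated and MHC class I genes 10 were higher and 8 lower, shares near those over all genes (36.5% and 35.9%), and 7 were over 2-fold higher and 3 over 2-fold lower (9.76% and 10.3% of all genes). The antiviral genes Rsad2 and Ifit1 rose from 0.187 ± 0.0904 and 0.128 ± 0.0806 CPM in control to 2.01 ± 0.15 and 1.77 ± 0.356 CPM in deprived cultures (3.41, SE 0.42, and 3.73, SE 0.51), while the peptide transporter Tap1 fell from 6.01 ± 0.437 to 2.12 ± 0.345 CPM (-1.47).

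Of 22 tested brakes on AKT and mTORC1 signalling 9 rose and 8 fell, near the shares over all genes. Among regulators of this pathway and of translation, chosen after their values were seen, the initiation repressor Eif4ebp1 rose from 144 ± 8.04 to 417 ± 8.85 CPM (1.57, SE 0.03), Ddit4, an inhibitor of mTORC1, from 87.9 ± 13.1 to 386 ± 2.82 CPM (2.17), and Eef2k, the kinase that halts elongation, fell from 51.2 ± 1.68 to 22.1 ± 1.38 CPM (-1.18).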
